A study of Mus musculus with 265 samples.

Results

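Of 104 mouse protein-coding genes that encode subunits of the RNA polymerases, the Mediator complex, the general transcription factors named Gtf2 and Gtf3, and the TATA-binding-protein-associated factors (TAFs), 90 had an accessible chromatin region at their promoter in the single-cell ATAC-seq matrix. These genes were chosen by symbol, and a region was assigned to a gene when its midpoint lay within 1000 bp of the start site in GENCODE vM21. They held 100 regions, among 8786 promoter regions of protein-coding genes and 20103 regions in all. Of the 90 genes, 81 had 1 region, 8 had 2, and Polr3g had 3. The 14 genes with no region in the matrix were Gtf2a1l, Gtf2ird1, Gtf3c3, Med10, Med12l, Med15, Polr1a, Polr2b, Polr2i, Polr2l, Polr3f, Taf1b, Taf7l and Taf9b.

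The cells were B3 cells, a mouse pre-B cell line carrying an inducible fusion of Ikaros to the ERt2 domain of the estrogen receptor, which moves Ikaros into the nucleus when 4-hydroxytamoxifen is added. All groups share this line and the fusion. The 0-hour cells were collected before induction, and the 24-hour cells after 24 hours of 4-hydroxytamoxifen with a further dose partway. The Fluidigm C1 microfluidic system isolated the cells, with 2 runs for each time-point. The matrix holds 48 and 47 cells of these runs at 0 hours and 60 and 72 at 24 hours. The labels list 48 and 63 single cells at 0 hours and 75 and 73 at 24 hours, so some labelled cells have no column in the matrix. The matrix holds no uninduced cells at 24 hours, so time in culture and Ikaros induction cannot be told apart. Neither labels nor methods say that the runs came from separate cultures, so p-values measure only the spread between runs.

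RNA polymerase I transcribes the ribosomal RNA precursor, polymerase II the protein-coding genes, and polymerase III transfer RNAs and 5S ribosomal RNA. For polymerase II, TFIID binds the core promoter through the TATA-binding protein and its TAFs, the other general factors assemble the preinitiation complex, and Mediator passes signals from enhancer-bound regulators to the polymerase. TFIIIA and TFIIIC recruit polymerase III, and the SL1 TAFs serve polymerase I. Most of these subunits are needed by every dividing cell, and their promoters are typically CpG-rich and lack a TATA box. Ikaros, a zinc-finger regulator of lymphocyte development, recognises a short core, GGGAA.

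The sequences of the regions on which the comparisons turn are shown first, in the GRCm38 (mm10) assembly and 5′ to 3′ on the strand of the gene. Capitals mark letters matching one of 9 short motifs on either strand, namely the Ikaros core GGGAA, the ETS core CCGGAA, the NRF1 motif GCATGC, the YY1 core AAGATGG, the CRE core TGACGT, the GC box GGGCGG, the CCAAT box CCAAT, the E-box CACGTG and the TATA box TATAAA. Any of these may overlap, as the GC box and the Ikaros core do in the Polr2a region and the ETS and YY1 cores do in the Med19 region. Stretches lying in an annotated exon are left out, so 5 of the 12 are shown in part. The first set holds regions with a higher signal in both 24-hour runs:
Med13l, chr5:118560188-118560336, plus strand: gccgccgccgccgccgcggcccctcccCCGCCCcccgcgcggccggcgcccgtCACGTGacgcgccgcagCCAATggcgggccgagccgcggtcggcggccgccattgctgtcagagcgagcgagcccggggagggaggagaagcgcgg
Polr2a, chr11:69758657-69758717, minus strand: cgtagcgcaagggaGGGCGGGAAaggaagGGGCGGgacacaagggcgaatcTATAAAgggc
Gtf2a2 (part), chr9:70012448-70012549, plus strand: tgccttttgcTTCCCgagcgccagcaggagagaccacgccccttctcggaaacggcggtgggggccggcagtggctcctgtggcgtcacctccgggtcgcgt
Med8 (part), chr4:118409274-118409336, plus strand: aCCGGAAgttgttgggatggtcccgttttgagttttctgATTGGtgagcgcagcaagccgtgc
The second set holds regions with a higher signal in both 0-hour runs, followed by the Taf5 region at its start site, which did not share that pattern:
Taf5 downstream, chr19:47068424-47068569, plus strand: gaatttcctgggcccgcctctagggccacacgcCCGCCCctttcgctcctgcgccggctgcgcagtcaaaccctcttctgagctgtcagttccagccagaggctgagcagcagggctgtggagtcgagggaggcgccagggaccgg
Taf6, chr5:138187843-138188002, minus strand: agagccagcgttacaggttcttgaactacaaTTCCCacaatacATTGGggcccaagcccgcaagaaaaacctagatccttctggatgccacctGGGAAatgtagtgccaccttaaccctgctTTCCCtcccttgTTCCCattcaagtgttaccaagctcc
Taf1a, chr1:183388831-183388960, plus strand: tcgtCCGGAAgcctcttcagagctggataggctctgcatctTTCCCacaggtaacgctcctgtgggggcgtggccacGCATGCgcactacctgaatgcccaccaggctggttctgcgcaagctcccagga
Taf5 start site, chr19:47067601-47067743, plus strand: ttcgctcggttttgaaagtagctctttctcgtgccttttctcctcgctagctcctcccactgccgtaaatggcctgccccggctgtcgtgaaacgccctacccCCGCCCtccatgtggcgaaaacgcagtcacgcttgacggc
The third set holds 3 of the regions detected in most cells, and the Taf12 region, whose signal stood high in 1 run alone:
Polr3g start site (part), chr13:81711014-81711129, minus strand: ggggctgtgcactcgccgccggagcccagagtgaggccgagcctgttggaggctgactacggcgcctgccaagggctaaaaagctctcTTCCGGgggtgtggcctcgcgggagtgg
Med21 (part), chr6:146642423-146642546, plus strand: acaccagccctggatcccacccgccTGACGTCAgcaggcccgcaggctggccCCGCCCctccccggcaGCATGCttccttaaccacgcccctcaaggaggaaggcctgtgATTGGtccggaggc
Med19, chr2:84678201-84678351, plus strand: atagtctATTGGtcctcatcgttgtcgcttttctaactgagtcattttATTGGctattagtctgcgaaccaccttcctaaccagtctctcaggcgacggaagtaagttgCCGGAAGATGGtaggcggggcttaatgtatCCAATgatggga
Taf12 (part), chr4:132274267-132274374, plus strand: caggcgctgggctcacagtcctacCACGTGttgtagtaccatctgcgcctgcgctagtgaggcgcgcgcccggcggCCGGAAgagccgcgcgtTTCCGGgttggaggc
The Polr2a stretch holds a TATA box near its 3′ end, the Med21 stretch a pair of CRE cores that form 1 palindrome, and the Taf6 stretch 4 Ikaros cores.

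Size and base composition of the 100 regions were close to those of other promoter regions. Their median width, end minus start, was 149 bp, beside 146 bp over the other 8686 promoter regions, and their median GC content over 150 bp around the midpoint was 63.7%, beside 65.3%. The midpoint lay upstream of the start site in 57 regions and downstream in 43, and 62 regions lay within 100 bp of it. The ETS core was found in 37 of the 100 windows, beside 23.8% of other promoter windows, and the CRE core in 16, beside 9.30%. The Ikaros core was found in 42 windows, beside 37.8%, the GC box in 58, beside 55.1%, and the E-box in 11, beside 6.93%. The CCAAT box was found in 28 windows, beside 30.8%, the NRF1 motif in 6, beside 6.65%, the YY1 core in 3, beside 3.82%, and the TATA box in 4, beside 1.99%. These are matches of letters and not binding sites. Each of the 99 regions long enough to be searched matched 1 place in the genome.

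Of the 100 regions, 31 were also within 1000 bp of the start of a protein-coding gene outside the list, and 13.7% of other promoter regions had more than 1 start in reach. A region joined the list if any start in reach was that of a listed gene, so regions with more starts had more ways to join. The shares are therefore not alike, and no excess of shared promoters can be read from them. The Med21 region is shared with Tm7sf3, the Gtf2h5 region with Serac1, and both upstream Polr3g regions with Mblac2. The Med29 region lies beside the start of Paf1, itself a polymerase II elongation factor. In such regions the signal cannot be assigned to either gene.

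Signal in single cells was sparse. The regions were detected in 5 to 54 of 227 cells with a median of 21, beside a median of 19 for other promoter regions, and 90.3% of their values were 0. At least 10% of cells had signal in 41 of the 100 regions, beside 39.7% of other promoter regions. The regions within 100 bp of the start had a median of 20.5 cells and the 10 regions more than 500 bp away a median of 13.

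**Figure D1:**
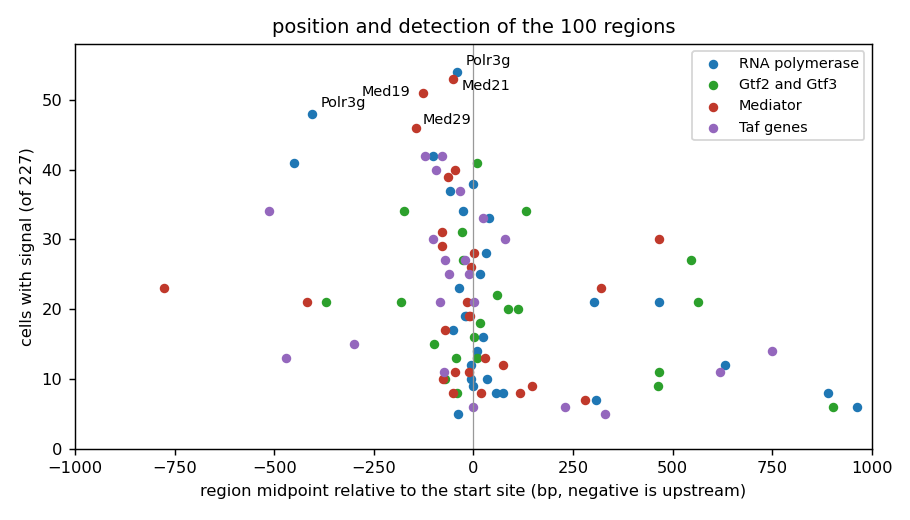
Each point is 1 of the 100 regions, with its midpoint relative to the start site in bp on the x axis and the number of cells with signal, of 227, on the y axis, coloured by gene family. Most regions cluster at the start site, where the highest point is Polr3g with 54 cells, and the regions furthest downstream have few cells.

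The 10 regions detected in most cells belonged to Polr3g (2 regions), Med21, Med19, Med29, Polr2d, Taf10, Taf4b, Polr1d and Gtf2h5, and 7 of them were shared with another gene. Polr3g encodes a polymerase III subunit known for its high level in pluripotent cells. Its start-site region had signal in 15 and 6 cells at 0 hours and in 14 and 19 cells at 24 hours. Its region at -406 bp had signal in 12, 6, 15 and 15 cells in the same order. Of the 54 cells with signal at the first, 22 (40.7%) also had it at the second, which is 45.8% of the 48 cells of the second, where 21.1% of all cells had signal at the second, and cells differed in depth.

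The Polr3g start-site region had 127 and 94.0 CPM (counts scaled to a common run total after TMM normalization) at 0 hours and 170 and 249 at 24 hours. The region at -406 bp had 133 and 94.0 CPM at 0 hours and 178 and 191 at 24 hours. In both, the 24-hour runs were the higher ones without overlap, with adjusted p-values of 0.522 and 0.671 by edgeR. As shares of each run's cells with signal, the groups overlapped in both. The Polr3g region at 632 bp had the reverse order, with 36.4 and 41.8 CPM at 0 hours and 32.3 and 7.33 at 24 hours. Its adjusted p was 0.805 by edgeR.

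Med21 and Med19, of the middle module of Mediator, were detected in 53 and 51 cells. Counts at Med21, summed over the cells of a run, were 20 and 16 at 0 hours and 21 and 24 at 24 hours, which is 121 and 167 CPM at 0 hours and 170 and 176 CPM at 24 hours. Med19 had 158 and 136 CPM at 0 hours and 226 and 95.3 at 24 hours, so its groups overlapped. The p from the quasi-likelihood test of edgeR, adjusted over all 20103 regions by the Benjamini-Hochberg method, was 0.883 for Med21 and 0.958 for Med19.

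Taf10, a histone-fold TAF shared by TFIID and SAGA, was detected in 42 cells and had 133 and 136 CPM at 0 hours and 170 and 73.3 at 24 hours. The Polr1d region at -450 bp, of a subunit shared by polymerases I and III, had 170 and 125 at 0 hours and 146 and 110 at 24 hours. The groups overlapped in both. Med29, of the Mediator tail, had 97.0 and 136 at 0 hours and 137 and 147 at 24 hours, and Gtf2h5, the smallest TFIIH subunit, 72.8 and 41.8 at 0 hours and 97.0 and 191 at 24 hours, both without overlap.

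**Figure D2:**
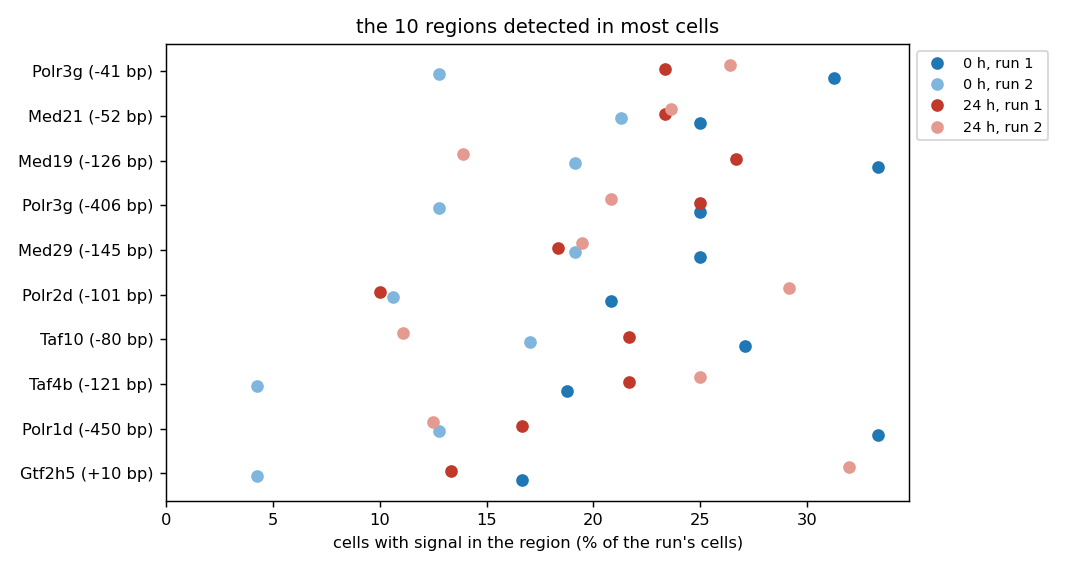
Rows are the 10 regions detected in most cells, with the midpoint's distance from the start site, and points are the share of each run's cells with signal, in percent. The 4 runs are coloured by time-point, and runs of one time-point lie far apart in several rows, as for Polr1d, with 33.3% and 12.8% of cells in the 0-hour pair.

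The depth of the runs, summed over all regions, was 164357 and 92639 counts at 0 hours and 122586 and 142611 at 24 hours. Promoter regions as a whole held 51.0% and 48.5% of the counts at 0 hours and 58.3% and 66.4% at 24 hours, so shares were taken within promoter counts. The pre-B check found regions at 7 of 9 marker genes, which were Cd79a, Cd79b, Ebf1, Pax5, Vpreb1, Igll1 and Blnk. They held 0.106% and 0.116% of promoter counts at 0 hours and 0.0980% and 0.0655% at 24 hours, lower in both 24-hour runs, and their groups overlapped as a share of all counts (0.0542% and 0.0561%, then 0.0571% and 0.0435%). Igll1, of the surrogate light chain, had signal in 25% and 14.9% of cells at 0 hours and in 5% and 0% at 24 hours, and Cd79a, of the B cell receptor, in 25% and 10.6% and then 6.67% and 6.94%. Shares of cells were also lower in both 24-hour runs at Vpreb1 and at the Pax5 region nearer the start. They overlapped at Ebf1, Cd79b, Blnk and the Pax5 region further from the start. The part of these differences in the results was not tested. Regions were present at 0 of 5 T cell markers, 0 of 4 erythroid markers and 1 of 5 myeloid markers (Lyz2, in 6 cells).

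The polymerase, Mediator, Gtf and Taf regions together held a larger share of promoter counts at 24 hours, in either run, than in either run at 0 hours. Their share was 1.08% (95% exact Clopper-Pearson interval 1.01 to 1.15, counting error only) and 0.961% (0.873 to 1.06) in the 0-hour runs, from 902 and 432 counts. It was 1.22% (1.14 to 1.31) and 1.18% (1.11 to 1.25) in the 24-hour runs, from 874 and 1115 counts. The mean 24-hour share was 1.18 times the mean 0-hour share. The intervals of 0-hour run 1 and of both 24-hour runs overlap, and with 2 runs against 2 an exact permutation test cannot give a p below 0.333. Of all counts, promoter or not, the regions held 0.549% and 0.466% at 0 hours and 0.713% and 0.782% at 24 hours.

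By family, the shares of promoter counts of the Gtf2 genes, the Gtf3 genes and Mediator were higher in both 24-hour runs, and those of the polymerase subunits and TAFs overlapped between time-points. Of all counts, promoter or not, each of the 5 families was higher in both 24-hour runs, with 0.174% and 0.134% then 0.201% and 0.217% for the polymerase subunits and 0.128% and 0.131% then 0.162% and 0.172% for the TAFs, so the overlap depends on the denominator. The 15 regions of the Gtf2 genes held 0.140% and 0.118% of promoter counts at 0 hours and 0.172% and 0.202% at 24 hours. The 27 Mediator regions held 0.296% and 0.245% at 0 hours and 0.358% and 0.334% at 24 hours. The 7 Gtf3 regions held 0.0477% and 0.0534% at 0 hours and 0.0700% and 0.0550% at 24 hours, the closest approach of the groups among the separated families. The 29 polymerase regions held 0.341% and 0.276% at 0 hours and 0.346% and 0.328% at 24 hours, and the 22 Taf regions 0.252% and 0.269% at 0 hours and 0.277% and 0.260% at 24 hours.

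**Figure D3:**
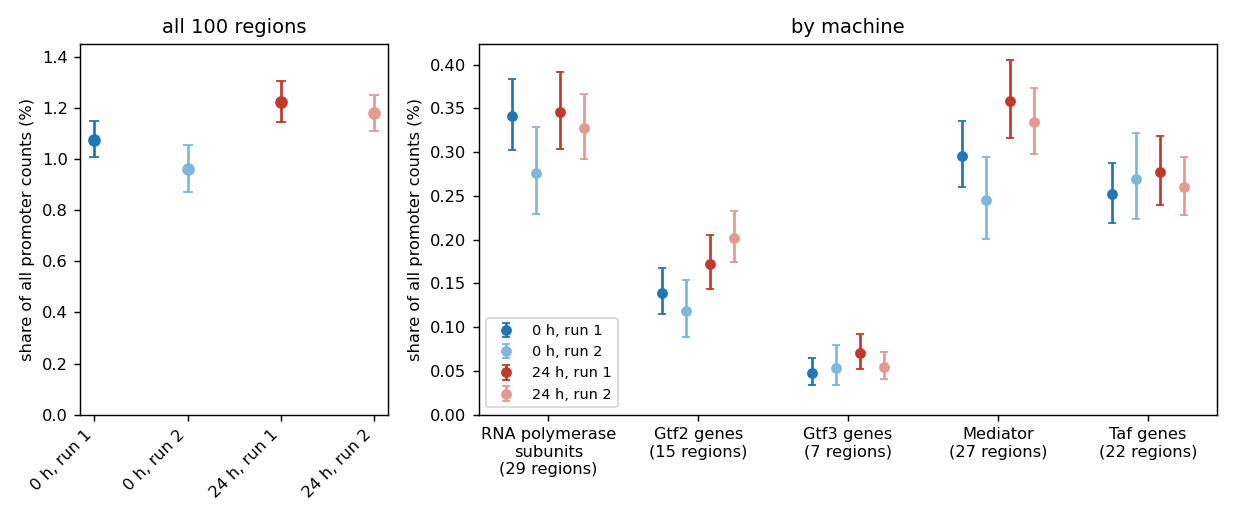
Points are the counts of the regions as a percentage of all promoter counts of a C1 run, for all 100 regions (left) and by family (right), and bars are 95% Clopper-Pearson intervals, which cover counting error only. The 24-hour runs lie above the 0-hour runs for all regions together, for the Gtf2 and Gtf3 genes and for Mediator, while polymerase and Taf shares overlap.

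Within Mediator, the tail had higher shares of promoter counts in both 24-hour runs, and the head and middle modules overlapped. Of all counts, the middle module did not overlap either, with 0.0584% and 0.0551% at 0 hours and 0.0726% and 0.0708% at 24 hours. The tail regions (8, one per gene), of the module that contacts activators, held 0.0847% and 0.0667% of promoter counts at 0 hours and 0.112% and 0.115% at 24 hours. The 3 regions of Med12, Med13 and Med13l, in the module that reversibly holds Mediator off the polymerase, held 0.0191% and 0.0222% at 0 hours and 0.0546% and 0.0370% at 24 hours, and Med13l gave 17 of the 39 and 18 of the 35 counts at 24 hours. Without Med13l the shares of the other two were 0.0167% and 0.0200% at 0 hours and 0.0308% and 0.0180% at 24 hours, which overlap. With the 3 regions found for Cdk8 and Ccnc, the kinase and cyclin of this module that the symbols leave out, the share was 0.0525% and 0.0445% at 0 hours and 0.0770% and 0.0454% at 24 hours, so the groups of the module as a whole overlapped within promoter counts. Both overlaps are absent as a share of all counts, where the 6 regions held 0.0268% and 0.0216% at 0 hours and 0.0449% and 0.0302% at 24 hours. The 5 regions of subunits particular to polymerase II held 0.0477% and 0.0267% at 0 hours and 0.0644% and 0.0666% at 24 hours. The 8 regions of subunits shared between polymerases held less of the promoter counts at 24 hours, with 0.0954% and 0.0934% at 0 hours and 0.0896% and 0.0814% at 24 hours, where the counting intervals overlap. Of all counts they held more at 24 hours, with 0.0487% and 0.0453% at 0 hours and 0.0522% and 0.0540% at 24 hours, and their median log2 change was 0.36, so the direction turns with the denominator. The 13 polymerase III regions held 0.150% and 0.140% at 0 hours and 0.176% and 0.154% at 24 hours.

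Among the general factors, the 8 regions of TFIIA, TFIIB, TFIIE and TFIIF held 0.0692% and 0.0690% of promoter counts at 0 hours and 0.0924% and 0.117% at 24 hours, without overlap. The 5 TFIIH regions overlapped, with 0.0394% and 0.0289% at 0 hours and 0.0378% and 0.0571% at 24 hours, as did the 16 regions of TFIID subunits, with 0.181% and 0.187% at 0 hours and 0.195% and 0.180% at 24 hours. Neither overlapped as a share of all counts. The symbols also take in genes that are no stable subunits of these complexes, such as Polr2m, which encodes the polymerase II-binding protein Gdown1, and the TFII-I family of DNA-binding regulators. The Polr2m region held 18 and 3 counts at 0 hours and 3 and 11 at 24 hours, so its groups overlapped. Taf5l and Taf6l belong to the SAGA coactivator, and their 2 regions held 14 and 10 counts at 0 hours and 16 and 15 at 24 hours.

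Single cells were compared by how many of these regions had signal, before and after their depth was made equal. The median was 10.5 and 6 regions per cell at 0 hours and 9 in each 24-hour run, at a median of 2898, 1787, 1839.5 and 1676 counts per cell. The mean of the 24-hour medians was 1.09 times that of the 0-hour medians, and 0.857 times without 0-hour run 2. When each cell was thinned to 837 counts, the medians were 4 and 3 at 0 hours and 5 and 6 at 24 hours. This left out the shallower cells, 0 and 1 at 0 hours and 13 and 9 at 24 hours, so the 24-hour cells that remained were a part chosen by depth. The thinned cells also held more promoter counts at 24 hours, with means of 425 and 403 per cell at 0 hours and 494 and 561 at 24 hours, and the part of this difference in the detection of the regions was not tested.

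No single region passed the test between time-points. The edgeR test called 0 of the 100 regions at an adjusted p of 0.05, where 0.0547% of all regions were called, and DESeq2 also called 0. At an unadjusted p of 0.05, 11 regions passed, where 12.1% of all regions did. Of these, 10 were higher at 24 hours, against 7.66% of other promoter regions and 5.11% of all regions, and 1 was lower, against 1.92% of other promoter regions and 7.0% of all regions. The counts of the list thus lay near those of promoter regions as a whole. With a run left out, 1 time-point has a single run, which is assumed to vary like the runs of the other. Leaving out 0-hour run 2 lowered the 10 to 3, where 3.45% of other promoter regions passed in that direction. Leaving out 24-hour run 1 raised it to 15, where 13.3% did, and gave 4 regions with an adjusted p under 0.05 (Med13l, Taf12, Med23 and Polr2d), in a fit that called 3.96% of all regions and whose spread came from the 0-hour runs alone. Taf12 and Polr2d were high only in the 24-hour run that remained.

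The median fitted log2 change, 24 hours against 0 hours, was 0.43 over the 100 regions, 0.33 over the other promoter regions and -0.06 over all regions, and 74 of the 100 values were above 0, against 64.5% of other promoter regions and 48.0% of all regions. Leaving out 0-hour run 1 moved the median to 0.84. When the number of cells was the scale, the median over all regions shifted to -0.51, that of the other promoter regions to -0.15 and that of the 100 regions to -0.07, and 49 of the 100 values were above 0, so the direction of the list on its own flips with the scale while its median stays above that of other promoter regions. The median SE of a region's log2 change was 0.85, and the range was 0.52 to 2.31. One region, Taf6 at 331 bp, had 0 counts in both 0-hour runs and 4 and 1 at 24 hours, and no fold is given for it. The median over the 99 others was 0.43.

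**Figure D4:**
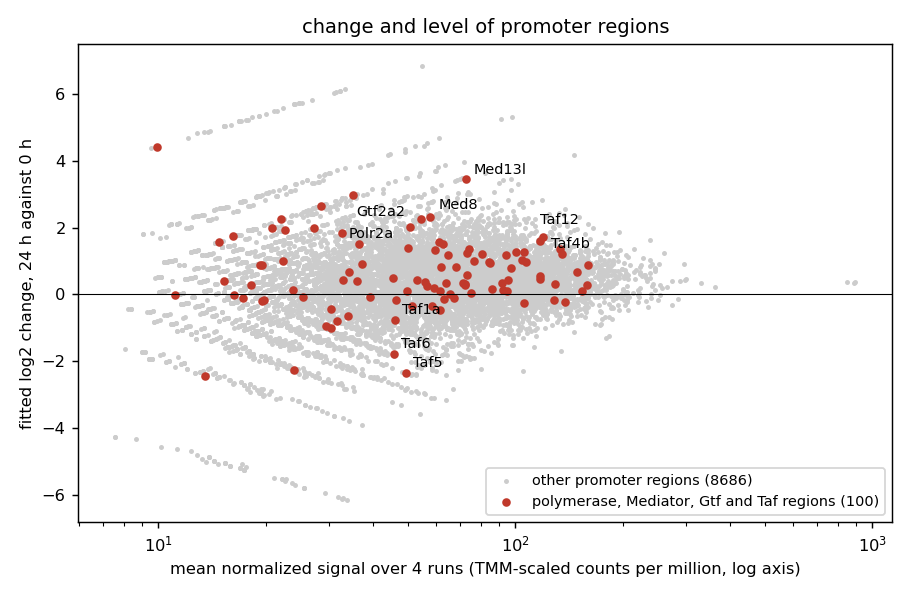
Points are promoter regions, with the mean TMM-scaled CPM over 4 runs on a log x axis and the fitted log2 change, 24 hours against 0 hours, on the y axis. The 100 regions (red) lie within the cloud of the 8686 others (grey), with Med13l named near the upper edge and the labelled regions of Taf5 (750 bp downstream) and Taf6 (471 bp upstream) below 0, and with the number of cells as the scale the median of the 100 falls from 0.43 to -0.07.

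The groups did not overlap, with the 24-hour runs higher, in 38 of the 100 regions, against 27.9% of other promoter regions and 19.3% of all regions. With the 0-hour runs higher, they did not overlap in 7, against 13.2% and 25.7%. With counts per cell as the scale, these numbers were 20 and 12, beside 12.1% and 20.3% of other promoter regions.

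Med13l, a paralogue of Med13 in the kinase module of Mediator, had the largest fitted change toward 24 hours among regions with at least 20 counts and separated runs. Its region on chromosome 5, 417 bp upstream of the start site and outside annotated genes, held 2 and 1 counts at 0 hours and 17 and 18 at 24 hours. Normalized, these were 12.1 and 10.4 CPM at 0 hours and 137 and 132 at 24 hours, and the groups lay far apart beside the spread of their runs. The fitted log2 change was 3.45 ± 0.89 (SE, n = 2 runs per time-point), with an adjusted p of 0.113 by edgeR. Signal was present in 1 cell of each 0-hour run and in 10 and 9 cells of the 24-hour runs. Over all alternatives the adjusted p ranged from 0.0185 to 0.831, and the lowest came without 24-hour run 1, with a single 24-hour run and the spread of the 0-hour runs alone.

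The other regions of the kinase module differed in pattern. The Med13 region, 776 bp upstream, had 48.5 and 31.3 CPM at 0 hours and 121 and 95.3 at 24 hours. The log2 change was 1.37 ± 0.74, with an adjusted p of 0.464 by edgeR. Med12, the subunit that activates the kinase, had 36.4 and 62.7 at 0 hours and 56.6 and 29.3 at 24 hours, so its groups overlapped. Cdk8 held 10 and 0 counts at 0 hours and 3 and 4 at 24 hours, and overlapped too. Of 2 Ccnc regions, the one at the start site had 11 and 6 counts at 0 hours and 5 and 3 at 24 hours, lower in both 24-hour runs after normalization, the opposite order to Med13l, and the one at -650 bp had 7 and 4 counts at 0 hours and 8 and 1 at 24 hours.

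Polr2a, the largest subunit of polymerase II and carrier of its C-terminal repeat, had a region with a midpoint 50 bp upstream of the start site on chromosome 11. It held 3 and 2 counts at 0 hours and 13 and 8 in the 24-hour runs. The normalized signal was 18.2 and 20.9 CPM at 0 hours and 105 and 58.7 at 24 hours, and the log2 change was 2.03 ± 0.95, with an adjusted p of 0.364 by edgeR. The counts came from 3 cells at 0 hours and 14 at 24 hours. Polr2c, a subunit of the assembly core, had 2 and 0 counts at 0 hours and 9 and 4 at 24 hours, again with separated runs. Polr2d, of the stalk of polymerase II, had 97.0 and 62.7 CPM at 0 hours and 88.9 and 293 at 24 hours, so that only 24-hour run 2 stood above the rest.

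Gtf2a2, the small subunit of TFIIA, had 4 and 1 counts at 0 hours and 10 and 14 in the 24-hour runs, in a region on chromosome 9 that spans the start site. Its log2 change was 2.25 ± 0.91, with an adjusted p of 0.303 by edgeR, and ranged from 1.88 to 3.04 without single runs. Both regions of Gtf2a1, which encodes the large TFIIA subunits, were also higher in both 24-hour runs. The region at 113 bp held 4 and 3 counts at 0 hours and 7 and 12 at 24 hours, and that at 564 bp held 9 and 0 counts at 0 hours and 9 and 16 at 24 hours. Of the 21 cells with signal at 564 bp, 2 (9.52%) also had it at 113 bp, where 8.81% of all cells had signal. Gtf2b, the single-subunit TFIIB, had 36.4 and 94.0 CPM at 0 hours and 72.8 and 220 at 24 hours, and its groups overlapped. Gtf2e1, of TFIIE, had 84.9 and 41.8 CPM at 0 hours and 88.9 and 73.3 at 24 hours, and Gtf2f1, of TFIIF, 12.1 and 83.6 at 0 hours and 64.7 and 88.0 at 24 hours. Gtf2h1, of the TFIIH core, had 48.5 and 41.8 CPM at 0 hours and 56.6 and 66.01 at 24 hours, a small gap without overlap.

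Med8, of the head of Mediator, had 24.3 and 10.4 CPM at 0 hours and 137 and 58.7 at 24 hours, with a log2 change of 2.33 ± 0.91 and an adjusted p of 0.282 by edgeR. The Med8 change ranged from 1.6 to 3.1 without single runs. Med17, the scaffold of the head, had 97.0 and 31.3 at 0 hours and 24.3 and 80.7 at 24 hours, and its groups overlapped. In the tail, Med23 had 66.7 and 83.6 at 0 hours and 121 and 264 at 24 hours. Med24 held 4 and 4 counts at 0 hours and 12 and 12 at 24 hours, and Med28 2 and 0 counts at 0 hours and 5 and 12 at 24 hours. The Med1 region, of the subunit that binds nuclear receptors, was sparse, with 7 and 0 counts at 0 hours and 2 and 5 at 24 hours. Med14, which joins the modules, held 5 and 1 counts at 0 hours and 1 and 4 at 24 hours. Med26, which links Mediator to elongation factors, had 72.8 and 41.8 CPM at 0 hours and 64.7 and 161 at 24 hours, and its groups overlapped.

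**Figure D5:**
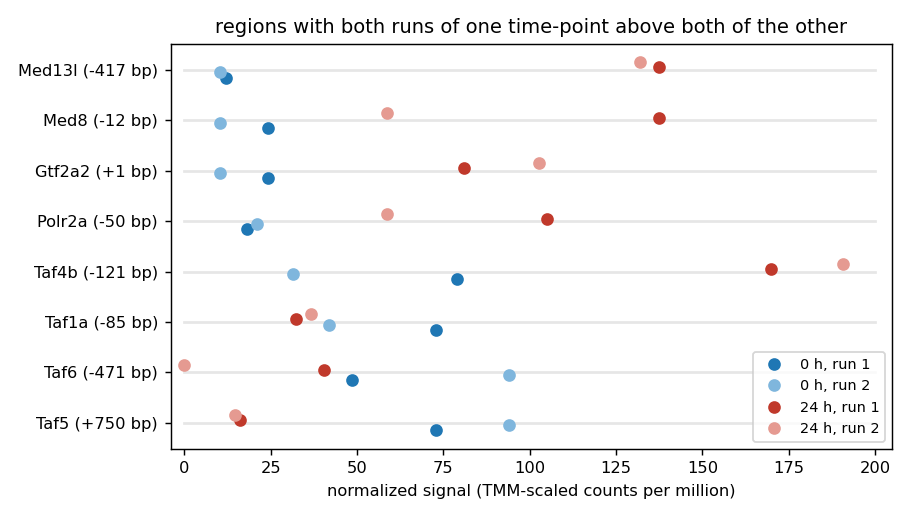
Rows are the 8 regions named by size of change among those with at least 20 counts and runs separated by time-point, and points are TMM-scaled CPM in each of the 4 C1 runs. Med13l shows the widest gap, with both 0-hour runs near 11.3 on average and both 24-hour runs near 135.

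TFIID genes included regions in both directions. Taf4b, a TFIID subunit enriched in gonads and B cells and a paralogue of Taf4, had 78.8 and 31.3 CPM at 0 hours and 170 and 191 at 24 hours. Its log2 change was 1.61 ± 0.61, with an adjusted p of 0.270 by edgeR, and it was 2.51 without 0-hour run 1. Taf4 itself had 42.5 and 31.3 at 0 hours and 56.6 and 51.3 at 24 hours. Taf1, the largest TFIID subunit, had 60.6 and 104 at 0 hours and 105 and 73.3 at 24 hours, and its groups overlapped. Taf7, which restrains Taf1, had 72.8 and 52.2 CPM at 0 hours and 64.7 and 95.3 at 24 hours, and Taf15, an RNA-binding protein of the FET family found with some TFIID, 115 and 73.1 at 0 hours and 105 and 176 at 24 hours.

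Taf5, a WD40-repeat subunit of the TFIID core, had 2 regions that differed in pattern. The region 750 bp downstream of the start site held 12 and 9 counts at 0 hours and 2 and 2 in the 24-hour runs. Its normalized signal was 72.8 and 94.0 CPM at 0 hours and 16.2 and 14.7 at 24 hours, with a log2 change of -2.35 ± 0.98 and an adjusted p of 0.311 by edgeR. Signal was present in 7 and 5 cells at 0 hours and in 1 cell of each 24-hour run. The region 74 bp upstream of the start site held 2 and 5 counts at 0 hours and 9 and 1 at 24 hours, so its groups overlapped. The start-site region had signal in 11 cells (4.85% of all) and the downstream region in 14 (6.17%). No cell had signal in both, but with so few cells the absence cannot be read.

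The Taf6 region 471 bp upstream of its start, which Cnpy4 shares, overlaps the Cnpy4 gene and not Taf6. It held 8 and 9 counts at 0 hours and 5 and 0 at 24 hours. The Taf6 region at 331 bp went the other way, with 0 counts in both 0-hour runs and 4 and 1 at 24 hours. The log2 change of the upstream region was -1.77 ± 1.03, with an adjusted p of 0.516 by edgeR. The value was -0.73 without 24-hour run 2, and without 24-hour run 1 the remaining 24-hour run is at 0 and no fold is given (adjusted p = 0.0518 by edgeR). Taf1a, of the SL1 complex of polymerase I, had 72.8 and 41.8 CPM at 0 hours and 32.3 and 36.7 at 24 hours, with a log2 change of -0.75 ± 0.91 and an adjusted p of 0.801 by edgeR. Without 0-hour run 1 its log2 change was -0.24.

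Single runs set several values. Taf12, which pairs with Taf4 through a histone fold and was named here after its values were seen, had 66.7 and 41.8 CPM at 0 hours, 40.4 in 24-hour run 1 and 330 in 24-hour run 2. Of its 37 cells with signal, 24 were in 24-hour run 2. Of the 100 regions, 15 had at least 3 times the signal of 24-hour run 1 in 24-hour run 2, and 12 the reverse. Between the 0-hour runs, 24 regions had at least 3 times the signal of run 2 in run 1, and 9 the reverse, and 15 regions had 0 counts in 0-hour run 2, the shallowest.

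Among regions chosen by role, those of the large catalytic subunits of polymerase III were among the sparsest. Polr3a had 2 and 2 counts at 0 hours and 4 and 0 at 24 hours, and Polr3b, at its start site, 2 and 2 counts at 0 hours and 4 and 1 at 24 hours. Polr1b, the second-largest polymerase I subunit, had 10 and 2 counts at 0 hours and 4 and 3 at 24 hours, and Polr1c, shared by polymerases I and III, 4 and 1 counts at 0 hours and 12 and 2 at 24 hours. The groups overlapped in all 4. Gtf3a, which encodes TFIIIA, had 3 and 5 counts at 0 hours and 9 and 13 at 24 hours, and Gtf3c1, the largest TFIIIC subunit, 13 and 3 counts at 0 hours and 14 and 21 at 24 hours. Both Gtf3 regions had separated runs, with adjusted p-values of 0.559 and 0.474 by edgeR.

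The fitted change was also set out by sequence and position. The 37 regions with an ETS core had a median log2 change of 0.33 and those without a median of 0.51, and the 42 regions with an Ikaros core had a median of 0.34 and those without 0.55. The 31 regions near another gene's start had a median of 0.58 and the others 0.43. The 10 regions more than 500 bp from the start had a median of -0.01, and those nearer a median of 0.49. These are descriptions of few sparse regions, with no test.

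Other genes of the same machinery, which the symbols leave out, served as a second list of 40 genes such as Tbp, the kinase Cdk7 of TFIIH, and the elongation factors. Regions were found for 37 of these genes, 44 in all, and the test called 0 of them, with a lowest adjusted p of 0.301 by edgeR, and 2 higher and 1 lower at an unadjusted p of 0.05, against 7.66% and 1.92% of other promoter regions. As a share of promoter counts this second list overlapped, with 0.426% and 0.509% at 0 hours and 0.424% and 0.435% at 24 hours. Its median log2 change was 0.29, and the runs did not overlap in 11 regions (25%) with the 24-hour runs higher and in 6 (13.6%) with the reverse order, close to the 27.9% and 13.2% of other promoter regions. Tbpl1, a TBP paralogue, held 6 and 0 counts at 0 hours and 12 and 8 at 24 hours. Nelfcd, of the pausing factor NELF, held 7 and 3 at 0 hours and 10 and 18 at 24 hours, and Hexim1, the inhibitor of the elongation kinase P-TEFb, 8 and 5 at 0 hours and 13 and 21 at 24 hours. Twistnb, a polymerase I subunit, held 10 and 2 at 0 hours and 9 and 22 at 24 hours, and Tbp 9 and 3 at 0 hours and 9 and 13 at 24 hours. The subunits of the elongation factor DSIF had fitted changes of opposite sign, neither of them called. Supt5 held 17 and 13 counts at 0 hours and 4 and 4 at 24 hours, with a log2 change of -1.91 ± 0.77 and an adjusted p of 0.301 by edgeR. Supt4a, under the minimum of 20 counts and chosen after its values were seen, held 2 and 0 at 0 hours and 4 and 10 at 24 hours, with a log2 change of 2.71 ± 1.29 and an adjusted p of 0.374 by edgeR. Ccnh, the cyclin of TFIIH, held 14 and 4 counts at 0 hours and 5 and 4 at 24 hours at 529 bp downstream. Its region at the start site, detected in more cells, held 9 and 10 at 0 hours and 7 and 25 at 24 hours, and its groups overlapped.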

How the data were processed

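Single-cell ATAC-seq libraries were processed by the authors, whose notes name Bowtie, Picard, HOMER and the mm10 build. Duplicate fragments were removed, peaks were called on bulk samples, and each cell was quantified in those peaks. The deposited matrix holds raw, unnormalized counts of 0, 1 or 2, and whether larger values were capped is not stated. The matrix columns, 227 in all, were matched to labels by time-point, run and well. The 6 bulk samples were not analysed here. Coordinates are printed as the matrix gives them, and its counting base is not stated.

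Counts were summed per C1 run, since cells of a run are not independent. The region test was that of edgeR 4.0.16 under R 4.3.3 (quasi-likelihood test, TMM scaling, Benjamini-Hochberg adjustment over all 20103 regions, threshold 0.05), after tests on simulated data, and with DESeq2 1.42.0 as an alternative. The filter of 5 cells removed no region. Intervals are exact Clopper-Pearson (SciPy 1.17.1) and cover counting error only. Sequences came from the RefSeq GRCm38 genome, and copies were sought with BLAST 2.17.0. No doublet caller was run, because the study inspected each capture site.

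Regions named were the 10 detected in most cells, up to 5 per direction with at least 20 counts and separated runs, those nearest the start of 28 genes fixed by role, and any called. Others in the text were chosen after their values were seen. The members and lists were chosen with earlier results of these data known.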

Additional observations from a re-analysis of the deposited data

How the results depend on the processing

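The median SE of a region's log2 change was 0.85 at this depth. The number of regions called was 0 in every fit over all 4 runs, 0 to 4 when a run was left out (4 without 24-hour run 1, where the calls over all regions went from 11 to 797 and a single 24-hour run was set against the spread of the 0-hour runs), and 11 at an unadjusted p of 0.05. Same-numbered runs did not deviate together (correlation -0.01), but over sparse counts this cannot show whether the runs were paired. With a replicate block the test called 0 regions, the median log2 change was 0.52 and its excess over other promoter regions 0.20, beside 0.11 without the block. The share of promoter counts, 24 hours over 0 hours, was 1.18, ranged from 1.12 to 1.25 without single runs, and was 1.47 as a share of all counts. The median log2 change (0.43) was -0.065 with the number of cells as the scale, 0.20 for regions in at least 10% of cells, 0.71 with thinned cells, and 0.41 to 0.84 without single runs. Its excess over other promoter regions, chosen after seeing the data (SD of 0.0725 over the 4 pairings of a 0-hour with a 24-hour run), was above 0 in each of 12 alternatives. The alternative without the filter is the main fit itself and could not differ, and the others reuse the same runs. The excess was 0.045 for regions in at least 10% of cells, 0.080 with the number of cells as the scale, 0.34 with thinned cells and 0.18 to 0.32 without single runs. Regions detected per cell, 24 hours over 0 hours, were 1.09, 1.57 after thinning, and 0.857 to 1.5 without single runs (0.857 without 0-hour run 2). Of the 8 regions named for their change, Med13l passed the threshold without 24-hour run 1 and no other did in the alternatives run. Since they were chosen for separated runs, their direction without single runs was fixed by that choice. The causes were not tested.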
